A study of Mus musculus with 65 samples.

Results

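T cell receptor and coreceptor genes were taken from a study of the effect of age on exon usage and gene expression in mouse tissues. Members were the genes Cd4, Cd8a, Cd8b1, Cd3d, Cd3e, Cd3g, Lck and Ptcra, and a gene was used where at least 1 probe set carried its symbol and no other. By this rule 7 of the 8 listed genes, of 15830 genes in all, were measured with 54 probe sets, and Lck was not analysed here. The level of a gene was the mean log2 signal of its probe sets, of which Cd4 had 12, Cd8a and Ptcra 9 each, Cd8b1 7, Cd3e and Cd3g 6 each, and Cd3d 5.

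The 65 arrays held 1 tissue sample each from 25 male wild-type C57BL/6J mice, without any treatment or transgene. Bone (tibia), skeletal muscle of the thigh and ventral skin were sampled at 4, 18 and 28 months, whereas the thymus and the white fat of the abdomen (adipose tissue) were sampled at 4 and 18 months only, with 5 arrays in each of the 13 groups. Several tissues came from the same mouse, and the bone, skin and muscle arrays at 28 months came from the same 5 mice. The 4-month bone arrays came from mice that gave no other tissue. Comparisons of bone with skin or muscle therefore share mice at 28 months but not at 4 months. These are whole tissues, in which fewer T cells and less RNA per T cell cannot be told apart.

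The mature T cell receptor is carried to the cell surface by the CD3 chains, whose cytoplasmic tails pass the signal on. Cd3g, Cd3d and Cd3e encode 3 of these chains. The coreceptors bind the MHC molecule that presents the antigen, CD4 on helper T cells and the heterodimer of the Cd8a and Cd8b1 products on cytotoxic T cells, and most thymocytes carry both. Ptcra encodes the pre-T alpha chain, which pairs with the beta chain in immature thymocytes before the alpha chain is rearranged.

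Cd4, Cd8a and Cd8b1 lie on mouse chromosome 6, Cd3d, Cd3e and Cd3g on chromosome 9 and Ptcra on chromosome 17. Cd3g and Cd3d are neighbours that start 1355 bases apart on opposite strands, and their promoters are shown with those of Cd3e and Ptcra because the data below separated Cd3g and Cd3e from Cd3d in skin and Ptcra from the other 6 genes in bone. Each run is the RefSeq window of 250 bases before to 50 bases after the start in GRCm38.p6, on the strand of the gene, and 6 of the 8 listed genes had such a window. Capitals mark matches, on both strands, to the E box CAGNTG, which is the site of E proteins, and to GGAAGT, a core of ETS factor sites. TGTGGT, a RUNX core, was also searched.
Cd3d, chr9:44981536-44981835, plus strand: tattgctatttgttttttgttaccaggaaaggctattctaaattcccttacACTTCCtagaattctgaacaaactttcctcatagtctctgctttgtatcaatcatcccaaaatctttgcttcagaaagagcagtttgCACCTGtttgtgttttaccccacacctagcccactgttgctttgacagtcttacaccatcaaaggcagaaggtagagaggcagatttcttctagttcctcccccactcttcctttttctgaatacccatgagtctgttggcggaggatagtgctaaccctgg
Cd3g, chr9:44980382-44980681, minus strand: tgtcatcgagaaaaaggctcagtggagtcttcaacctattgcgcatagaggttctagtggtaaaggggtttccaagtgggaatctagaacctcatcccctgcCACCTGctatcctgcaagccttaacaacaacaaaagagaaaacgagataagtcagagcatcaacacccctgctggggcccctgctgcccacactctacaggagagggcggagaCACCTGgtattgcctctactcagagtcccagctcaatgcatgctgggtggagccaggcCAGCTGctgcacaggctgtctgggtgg
Cd3e, chr9:45009562-45009861, minus strand: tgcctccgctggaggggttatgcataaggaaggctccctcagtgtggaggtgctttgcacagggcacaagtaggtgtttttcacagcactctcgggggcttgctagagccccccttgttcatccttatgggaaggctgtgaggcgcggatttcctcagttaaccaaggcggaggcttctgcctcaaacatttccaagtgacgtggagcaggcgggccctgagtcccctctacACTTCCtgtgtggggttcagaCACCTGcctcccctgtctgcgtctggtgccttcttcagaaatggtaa
Ptcra, chr17:46763663-46763962, minus strand: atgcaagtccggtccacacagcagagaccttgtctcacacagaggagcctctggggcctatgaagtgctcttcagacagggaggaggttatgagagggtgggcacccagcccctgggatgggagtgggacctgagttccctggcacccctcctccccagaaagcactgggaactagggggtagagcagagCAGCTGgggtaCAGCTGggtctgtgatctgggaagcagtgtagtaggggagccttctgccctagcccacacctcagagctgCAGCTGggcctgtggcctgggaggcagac
Of 32851 windows of the same length, 51.4% held CAGNTG, 23.8% GGAAGT and 16.8% TGTGGT. The E box matched 3 times in the window of Cd3g, 3 times in that of Ptcra and 1 time each in those of Cd3d and Cd3e. GGAAGT matched 1 time each in the windows of Cd3d and Cd3e, and TGTGGT had 0 matches in these 4 windows. None of the windows overlapped another.

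Array medians lay between 5.08 and 5.30 and arrays of a group correlated with r of at least 0.93 over all genes. Markers of the labelled tissue were high in each tissue: the mean log2 level was 9.92 for 7 bone genes in 4-month bone, 12.40 for 7 skeletal muscle genes in 4-month muscle, 11.01 for 5 epidermal genes in 4-month skin, 11.45 for 11 adipocyte genes in 4-month adipose tissue and 8.07 for 13 thymic epithelial genes in 4-month thymus. The muscle list also ranged from 6.34 to 11.32 over the 4- and 18-month bone arrays and from 5.51 to 11.72 over the 4- and 18-month skin arrays. Replicate 1 of 4-month adipose tissue stood apart. Its Cd3g level was 9.71 against 3.68 to 4.67 on the other 4 arrays of its group, its Cd8a level 8.91 against 3.20 to 3.91 and its Cd4 level 7.22 against 3.08 to 3.44, and Cd8b1 (7.64), Cd3d (6.67) and Cd3e (7.48) were raised likewise. Its Ptcra level was 4.07, against 3.79 to 4.00. On the same array the mean of 14 B cell genes was 7.32 against 3.72 to 4.30 on the other 4, that of 24 T cell receptor signalling genes 6.26 against 4.34 to 4.63, that of 11 adipocyte genes 11.44 against 11.32 to 11.55, and that of 13 thymic epithelial genes 4.55 against 4.38 to 5.47. The fit over all 13 groups shares 1 estimate of the spread per gene. This array therefore widened the error of every comparison of the 6 genes. Results of this fit are given with and without the array.

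The 7 genes had their highest levels in thymus and did not pass the test between 4 and 18 months there. Cd8a, the CD8 alpha chain, was at 12.77, 12.81, 12.78, 12.77 and 12.75 on the 5 arrays at 4 months and at 12.64, 12.79, 12.76, 12.92 and 12.91 at 18 months. The 2 ages overlapped, and the change was 0.03 ± 0.50 (log2, SE of the fit). Cd4 was at 10.83, 10.68, 10.68, 10.70 and 10.47 at 4 months and at 10.57, 10.79, 10.61, 10.73 and 10.51 at 18 months, a change of -0.03 ± 0.37. Cd3g changed by -0.02 ± 0.57 from a mean of 12.32 ± 0.03 (SD, n = 5) at 4 months. With limma and Benjamini-Hochberg adjustment over all genes, 0 of the 7 genes had an adjusted p below 0.05, where 0.67% of all genes did, and 1 gene, Ptcra, had an unadjusted p below 0.05. With the 10 thymus arrays fitted alone the SEs fell to between 0.06 and 0.15, and again 0 of the 7 passed, as was the case without the adipose array.

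Cd3e and Ptcra were the genes with the clearest lower values in 18-month thymus. Cd3e, the CD3 epsilon chain, was at 10.47, 10.60, 10.51, 10.47 and 10.53 at 4 months and at 10.20, 10.36, 10.40, 10.37 and 10.38 at 18 months. The 2 groups did not overlap, but the change was only -0.17 ± 0.36 (adjusted p = 1.0), and -0.17 ± 0.06 (adjusted p = 0.166) with thymus fitted alone. Ptcra was at 6.12, 6.23, 5.91, 6.32 and 6.00 at 4 months and at 5.64, 5.67, 5.61, 5.95 and 5.97 at 18 months, so that the groups overlapped, with a change of -0.35 ± 0.11 (adjusted p = 0.159). Only 5 of the 9 Ptcra probe sets were at least 2 log2 units higher in 4-month thymus than in 4-month muscle. Over these 5 the change was -0.48 ± 0.10, which is a description only, because they were chosen on the 4-month thymus arrays that form 1 side of the comparison. Over the single probe sets of Ptcra the change ranged from -1.07 to -0.003, whereas the probe sets of Cd8a ranged from -0.06 to 0.13 and those of Cd3d from -0.007 to 0.10.

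The study asked whether exon usage changed with age, and a probe set that moved against the rest of its gene would show this. In thymus, limma's diffSplice F-test called 0 of the 7 genes (0.628% of 12576 genes were called, or 79 genes, and between 31 and 211 with 1 thymus array left out), and 0 had an unadjusted p below 0.05. The smallest unadjusted p was 0.22, for Ptcra. The Ptcra probe set that fell most, 5265153, fell by 1.07 and was 2.17 log2 units higher in thymus than in muscle at 4 months, with an adjusted p of 0.517 against the rest of its gene in limma's test of single probe sets. A test on probe sets centred on their gene called 0 of the 7 genes too, and 0 of all 12576, of which 1074 had an unadjusted p below 0.05.

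Genes that work with the receptor were counted over whole lists. Of 24 measured T cell receptor signalling genes, 0 rose and 0 fell between 4 and 18 months, with a median change of -0.05 beside 0.02 over all genes. Cd247, the CD3 zeta chain, had the smallest adjusted p of that list, with a change of -0.33 ± 0.12 (adjusted p = 0.327). Over all genes 0.404% rose and 0.265% fell in this comparison. Of 25 genes of thymocyte development, 1 fell, and 2 fell without the adipose array. Notch3, a receptor active in early thymocytes, fell by 0.89 ± 0.17 (adjusted p = 0.00194), while Bcl11b (-0.71 ± 0.20, adjusted p = 0.0746) and Notch1 (-0.77 ± 0.25, adjusted p = 0.197) did not pass. Of 23 genes of mature, cytotoxic and NK cells, 3 rose: Cxcr6 by 1.35 ± 0.27, Gzmk, a granzyme, by 0.69 ± 0.16 and Pdcd1, the inhibitory receptor PD-1, by 0.62 ± 0.16. Among B cell genes 1 of 14 rose, the kinase gene Blk by 1.77 ± 0.34 (adjusted p = 0.00206), and 3 of 14 rose without the adipose array or without replicate 1 of 28-month bone. The mean of the B cell list was between 4.37 and 4.63 on the 4-month thymus arrays and between 5.09 and 5.81 on the 18-month arrays. The mean of 16 macrophage and dendritic cell genes was between 7.14 and 7.48 at 4 months and between 7.53 and 7.83 at 18 months, with 1 gene called, Lyz2 (1.03 ± 0.25, adjusted p = 0.0264). The mean of the adipocyte list was 6.98 ± 0.48 and 7.85 ± 0.69 (SD, n = 5), and the ages overlapped. The part of these cells in the results for thymus was not tested.

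**Figure D1:**
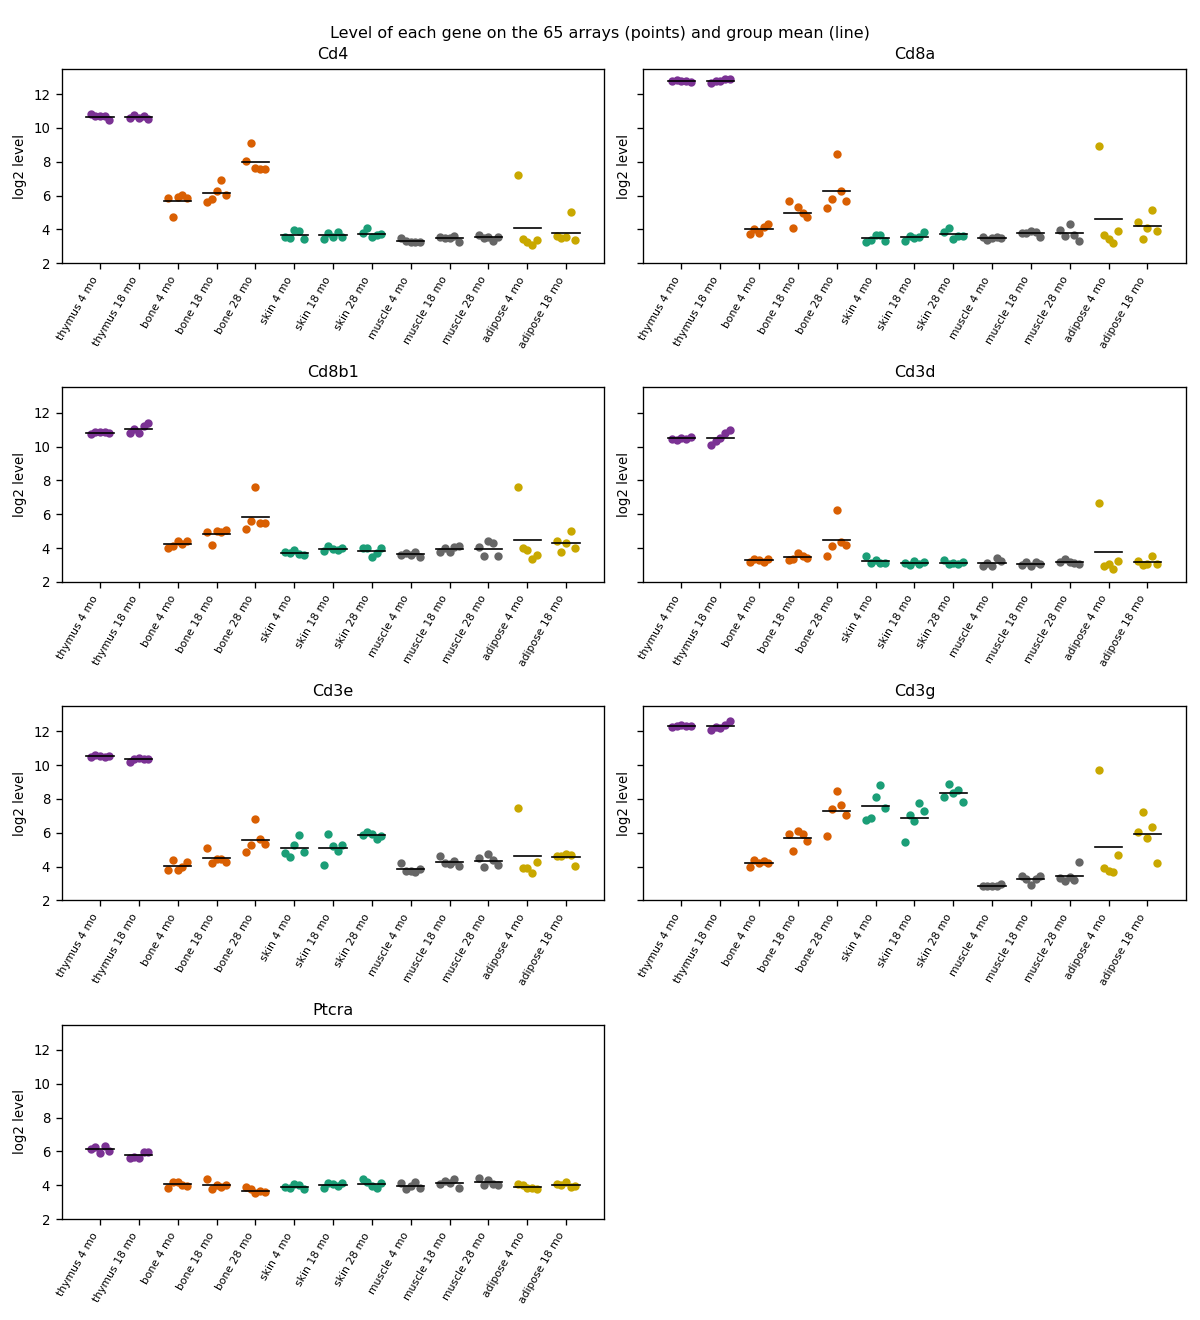
Log2 level of the 7 genes (vertical axis) on each array of the 13 groups of tissue and age (horizontal axis), 5 points per group with the group mean as a line. Thymus stands above all other tissues for each gene, bone rises toward 28 months for every gene except Ptcra, and replicate 1 of 4-month adipose tissue lies far above its group for 6 genes.

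At 4 months all 7 genes were higher in thymus than in each of the other 4 tissues, and on no array of those tissues did a gene reach its lowest 4-month thymus value. The background of such a call was wide, since 46.4% of all genes differed between thymus and bone, 54.3% between thymus and skin, 61.7% between thymus and muscle and 52.5% between thymus and adipose tissue. Cd8a was 8.77 ± 0.50 log2 units higher in thymus than in bone and Ptcra 2.07 ± 0.11. Cd3g was 8.10 ± 0.57 higher than in bone but 4.71 ± 0.57 higher than in skin, while Cd3d, the CD3 delta chain, was 7.21 ± 0.35 and 7.24 ± 0.35 higher. After the 2 thymus groups, which overlapped for every gene but Cd3e, the order of group means differed between genes. For Cd4, Cd8a, Cd8b1 and Cd3d the next group was 28-month bone, for Cd3e and Cd3g it was 28-month skin, and for Ptcra it was 28-month muscle. Most neighbours further down overlapped: apart from the step below thymus, the exceptions were 28-month above 18-month bone for Cd4 and Cd8b1.

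In bone, 6 of the 7 genes rose between 4 and 28 months. Cd3g, the CD3 gamma chain, rose 8.30-fold, Cd4 4.97-fold, Cd8a 4.89-fold, Cd8b1 3.08-fold, Cd3e 2.87-fold and Cd3d 2.31-fold in signal, while Ptcra fell by 0.36 on the log2 scale. In 4-month bone Cd3d (3.27) and Ptcra (4.04) were near their levels in 4-month muscle (3.13 and 3.97) and skin (3.24 and 3.92). No detection limit came with the values, so the fold of Cd3d may be a lower bound. The mean levels of Ptcra lie within the range of low signals, but its fall lay mostly in a single brighter probe set, given below. All 7 genes had an adjusted p below 0.05 where 14.6% of all genes did, and the 28-month arrays lay above all 4-month arrays for 6 genes where 7.93% of all genes showed this. The median change of the 7 genes was 1.62, beside -0.05 over all genes tested.

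Cd3g was at 3.96, 4.40, 4.22, 4.33 and 4.21 in 4-month bone, at 5.93, 4.91, 6.08, 5.92 and 5.52 in 18-month bone and at 5.83, 7.38, 8.47, 7.67 and 7.03 in 28-month bone. All older arrays lay above all 4-month arrays, and replicate 1 of the 28-month group lay within the 18-month range. The change from 4 to 28 months was 3.05 ± 0.57 (adjusted p = 0.000118). Cd4 was at 5.85, 4.73, 5.90, 6.01 and 5.83 at 4 months, at 5.65, 5.79, 6.27, 6.90 and 6.03 at 18 months and at 8.07, 9.09, 7.63, 7.55 and 7.56 at 28 months. The first 2 ages overlapped and the 28-month arrays stood above both, with replicate 2 highest. Its change from 4 to 28 months was 2.31 ± 0.37 (adjusted p = 1.08e-05).

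Cd8a was at 3.74, 4.02, 3.77, 4.15 and 4.34 at 4 months, at 5.67, 4.06, 5.30, 4.99 and 4.76 at 18 months and at 5.26, 5.80, 8.47, 6.24 and 5.69 at 28 months. Replicate 3 of the 28-month group was the highest, and the change from 4 to 28 months was 2.29 ± 0.50 (adjusted p = 0.00101). Cd8b1, the CD8 beta chain, was at 5.13, 5.62, 7.59, 5.50 and 5.48 at 28 months, above 4.03 to 4.41 at 4 months (1.62 ± 0.38, adjusted p = 0.00226). Cd3e was at 4.89, 5.29, 6.79, 5.61 and 5.31, above 3.81 to 4.40 (1.52 ± 0.36, adjusted p = 0.00227). Cd3d was at 3.50, 4.11, 6.26, 4.35 and 4.17, above 3.18 to 3.38 (1.21 ± 0.35, adjusted p = 0.0136). In these 3 genes as in Cd8a, replicate 3 was the highest 28-month array. Without it, Cd3d no longer passed (0.76 ± 0.33, adjusted p = 0.125), nor did Ptcra, and the other 5 genes rose. Ptcra also did not pass without replicate 2 or replicate 3 of the 4-month group. The skin and muscle arrays of the same mouse had Cd8a levels of 3.44 and 4.32, which were the lowest and the highest of their 28-month groups.

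Ptcra ranged from 3.85 to 4.21 in 4-month bone and from 3.53 to 3.88 in 28-month bone, and the 2 ages overlapped (-0.36 ± 0.11, adjusted p = 0.0189). The fall lay mostly in 1 probe set, 5126716, which went from 7.73 to 6.09 and was 0.79 log2 units higher in thymus than in muscle. Averaged over the 5 probe sets at least 2 units higher in thymus, the change of Ptcra was -0.20 ± 0.10 (adjusted p = 0.144). For the other genes the rise was spread over probe sets. All 12 probe sets of Cd4, 9 of Cd8a, 6 of Cd3g and 5 of Cd3d were higher in 28-month bone, as were 5 of the 6 of Cd3e and 5 of the 7 of Cd8b1. Each probe set of Cd4, Cd8a and Cd3g was higher by over 1 log2 unit, up to 2.99, 3.14 and 3.87.

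**Figure D2:**
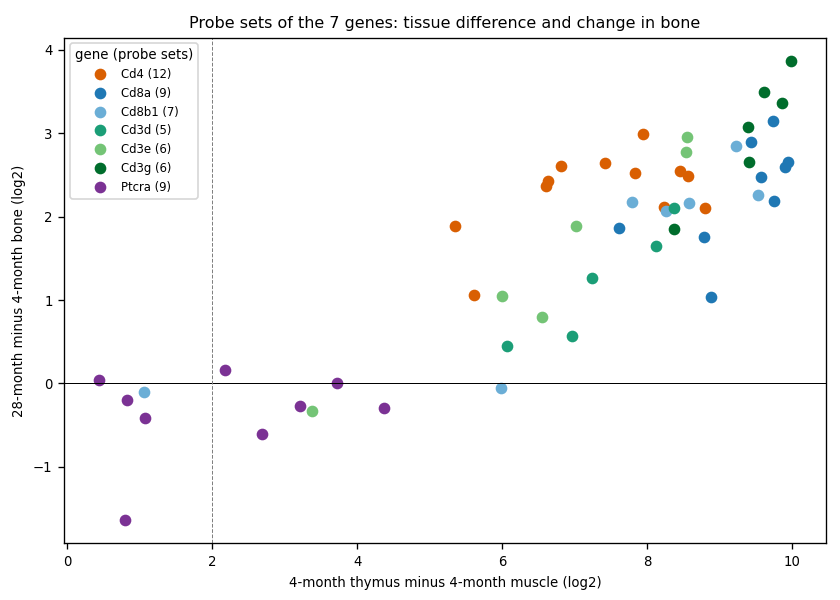
Each point is 1 of the 54 probe sets of the 7 genes, coloured by gene, with the difference between 4-month thymus and 4-month muscle on the horizontal axis and the change from 4- to 28-month bone on the vertical axis (both log2). The dashed line marks a thymus difference of 2, below which lie 4 Ptcra probe sets, including the lowest point at -1.64, and 1 of Cd8b1.

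Between 4 and 18 months, 0 of the 7 genes passed in bone (1.19% of all genes did), with 1 gene, Cd3g, at an unadjusted p below 0.05. Cd3g changed by 1.45 ± 0.57 (adjusted p = 0.289), and its 18-month arrays all lay above its 4-month arrays. Between 18 and 28 months only Cd4 rose, by 1.85 ± 0.37 (adjusted p = 0.00102), where 4.18% of all genes passed. Cd4 and Cd8b1 did not overlap between these ages, as was the case for 3.41% of all genes. Without replicate 1 of 4-month adipose tissue the changes stayed the same and their SEs fell, for Cd3g from 0.57 to 0.37 and for Cd3d from 0.35 to 0.21. Cd3g then rose between 4 and 18 months (adjusted p = 0.0243), and 6 of the 7 genes, all but Ptcra, rose between 18 and 28 months where 4.49% of all genes passed. These SEs are pooled with tissues of little spread. For Cd3d, Cd8a and Cd8b1 they were 0.21, 0.29 and 0.23, against 0.35, 0.47 and 0.35 with the bone arrays fitted alone. In limma's fit of bone alone, Cd4, Cd3g and Cd3e rose between 18 and 28 months. Cd3d, Cd8a and Cd8b1 did not pass there (adjusted p = 0.124, 0.135 and 0.123), so their calls rest on the pooled error. The change from 18 to 28 months less that from 4 to 18 months was tested directly, and 0 of the 7 genes passed (0.619% of all genes did), with Cd4 at 1.39 ± 0.65 (adjusted p = 0.587) and an unadjusted p below 0.05 for that gene only.

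**Figure D3:**
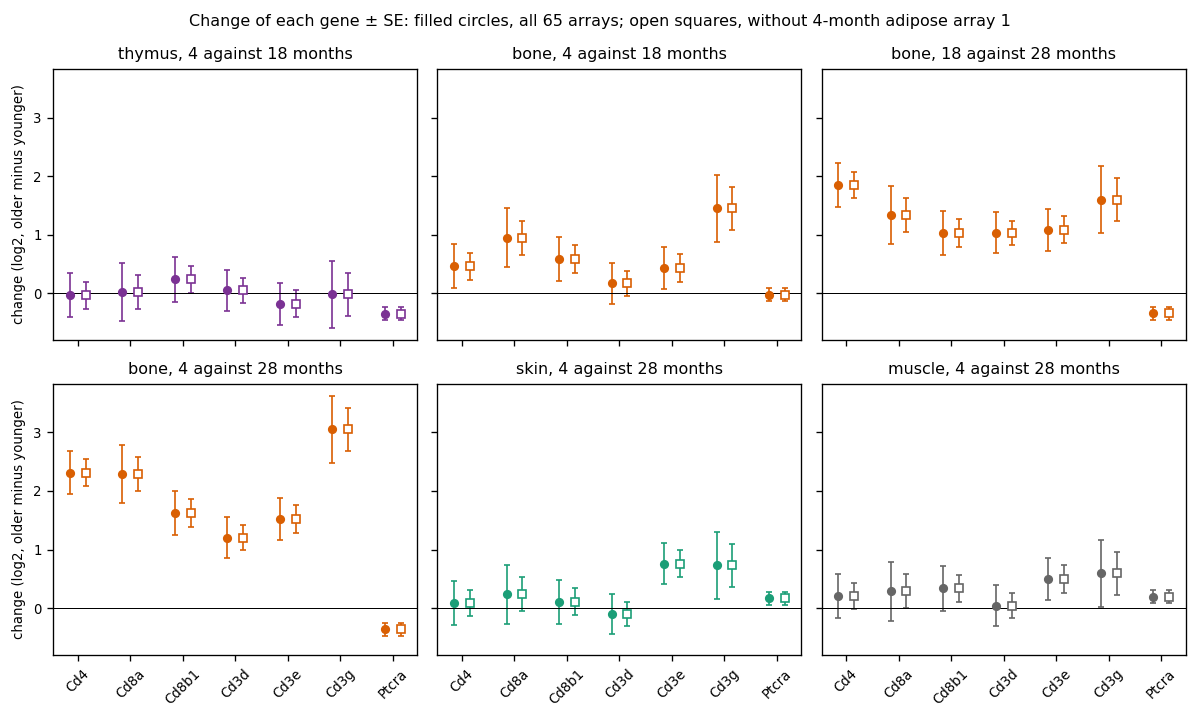
Change of each gene (vertical axis, log2, older minus younger, ± SE of the fit) in 6 comparisons of age, with all 65 arrays (filled circles) and without replicate 1 of 4-month adipose tissue (open squares). The values are the same in both fits and the error bars shorten without that array, and bone between 4 and 28 months has the widest departures from 0.

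The rise from 4 to 28 months was larger in bone than in skin for Cd4 (by 2.23 ± 0.53), Cd3g (2.32 ± 0.80), Cd8a (2.05 ± 0.71) and Cd8b1 (1.51 ± 0.54), and Ptcra differed the other way (-0.53 ± 0.15). These 5 of the 7 genes passed the test of the difference, where 21% of all genes did, and Cd3d did not (1.30 ± 0.49, adjusted p = 0.0502). Against muscle, Cd4 (2.11 ± 0.53), Cd3g (2.46 ± 0.80), Cd8a (2.00 ± 0.71) and Ptcra (-0.56 ± 0.15) passed, 4 of 7 where 25.2% of all genes did. Without the adipose array all 7 genes passed against muscle and all but Cd3e passed against skin. Without replicate 3 of 28-month bone, 2 genes passed in each of these comparisons.

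Some genes of the T and NK cell lists rose in 28-month bone beside the receptor genes, where 8.14% of all genes rose and 6.46% fell. Which cells carried them was not tested. Of 23 genes of mature, cytotoxic and NK cells, 8 rose from 4 to 28 months and 0 fell, led by the chemokine gene Ccl5 (3.64 ± 0.52), the chemokine receptor gene Cxcr3 (2.78 ± 0.37), Gzmk (1.14 ± 0.16) and Klrk1, the activating receptor NKG2D (1.10 ± 0.18). Of 24 T cell receptor signalling genes, 7 rose and 0 fell, among them the costimulatory receptor gene Cd28 (1.49 ± 0.38), the phosphatase gene Ptpn22 (1.09 ± 0.20), Cd6 (0.90 ± 0.23) and the kinase gene Txk (0.77 ± 0.18). Without the adipose array 12 of the 24 rose. Their medians were 0.24 and 0.53, beside -0.05 over all genes. Cd247 did not pass (0.16 ± 0.12, adjusted p = 0.362), nor did Tcra, the receptor alpha chain (0.29 ± 0.18, adjusted p = 0.269), and their values in bone were looked up after other values had been seen. Of 25 genes of thymocyte development, 1 rose and 4 fell. The transcription factor gene Tox rose by 0.72 ± 0.15, while Rag1, a subunit of the recombinase that joins receptor segments, fell by 3.01 ± 0.29 and Dntt, the terminal transferase, by 1.52 ± 0.20. Both of the latter act in B cell precursors of bone marrow as well, and Vpreb3, a gene of those precursors, fell by 1.69 ± 0.22, the 1 of 14 B cell genes that passed. Without the adipose array 4 of the 14 fell and 1 rose, and without replicate 3 of 28-month bone 2 fell.

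Markers of other cells also changed in bone between 4 and 28 months, not all of them at the same ages as the receptor genes. Of 16 macrophage and dendritic cell genes 10 rose, among them C1qa by 1.89 ± 0.32 and Emr1, which encodes F4/80, by 1.73 ± 0.27. The mean of that list ranged from 7.99 to 8.20 on the 4-month bone arrays and from 8.50 to 9.43 on the 28-month arrays, which did not overlap. The mean of the skeletal muscle list ranged from 6.34 to 10.10 at 4 months and from 8.81 to 10.97 at 28 months (3 of 7 rose, 1 without replicate 1 or 3 of 28-month bone), and that of the adipocyte list from 5.49 to 6.11 and from 5.91 to 8.15 (3 of 11 rose, 1 without replicate 3). Replicate 3, the highest array in Cd8a and the CD3 genes, also had the highest adipocyte mean. Genes of erythroid cells had a mean of 10.17 to 10.37 at 4 months and fell in 3 of 6 genes (5 without replicate 1), with replicate 5 lowest by far among the 28-month arrays at 5.16, and replicate 1 had the lowest B cell mean, 4.41 against 5.48 to 6.72. Bone genes fell in 5 of 7, and in 3 of 7 without replicate 1 or 5. Between 4 and 18 months 4 of the 7 bone genes fell, and between 18 and 28 months 2 rose and 0 fell. The median change of the muscle list was 1.54 and 0.66 in these 2 periods, with 0 of its 7 genes called in either. The part of these cells in the rise of the receptor genes and of the T and NK cell lists was not tested. Without replicate 5, 6 receptor and coreceptor genes rose and Ptcra did not pass, and without replicate 1 all 7 calls held.

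**Figure D4:**
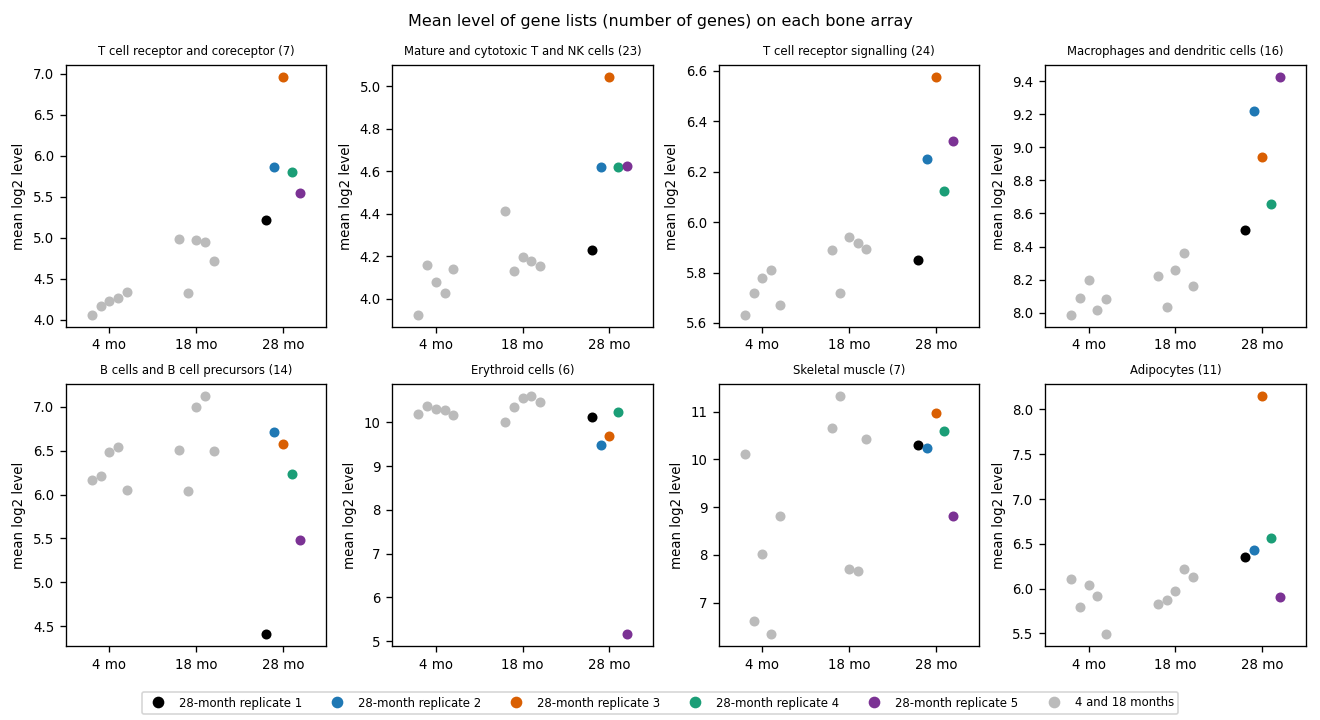
Mean log2 level (vertical axis) of the 7 receptor and coreceptor genes and of 7 marker lists on each bone array by age (horizontal axis), with the number of genes in parentheses and the 5 arrays at 28 months in colour. The receptor genes and the macrophage list are higher at 28 months on all 5 arrays, replicate 1 lies within the younger range of the mature T and NK cell list and is lowest in the B cell list and replicate 5 is lowest in the erythroid list.

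In skin the CD3 genes parted. Cd3g was at 6.75, 6.90, 8.10, 8.82 and 7.49 in 4-month skin, at 5.44, 7.06, 6.71, 7.78 and 7.32 at 18 months and at 8.12, 8.92, 8.37, 8.52 and 7.80 at 28 months. Every skin array lay above every muscle array, where the highest value was 4.28. Cd3d ranged from 2.98 to 3.50 over the 15 skin arrays and from 2.93 to 3.43 over the 15 muscle arrays, so that these tissues overlapped. All 6 probe sets of Cd3g were higher in 4-month skin than in 4-month muscle, by 2.55 to 6.04, against -0.14 to 0.47 for the 5 probe sets of Cd3d. Cd3e ranged from 4.59 to 5.85, from 4.08 to 5.93 and from 5.60 to 6.02 in skin at the 3 ages, against 3.69 to 4.23, 4.01 to 4.61 and 3.98 to 4.73 in muscle, so that the tissues overlapped at 18 months only. Its 6 probe sets differed between 4-month skin and muscle by -0.13 to 2.40. Cd4, Cd8a and Cd8b1 in skin stayed at or below 4.07, 4.06 and 4.12. Over the 11 group means outside thymus, Cd3g correlated with Cd3e at r = 0.92 but with Cd3d at r = 0.29, and Cd3d correlated with Cd8a at r = 0.93. These r values describe 11 points that share mice and arrays. Their 4-month adipose means include replicate 1, and no version without it is given. Without that array these means were 3.55 instead of 4.62 for Cd8a, 3.01 instead of 3.74 for Cd3d and 4.00 instead of 5.14 for Cd3g. Tcrg-V3, a gamma chain variable segment with 1 probe set, chosen after its values were seen, had means of 4.95, 4.30 and 5.91 in skin at the 3 ages, of 2.44 to 2.81 in bone and muscle, of 2.72 and 3.64 in adipose tissue at 4 and 18 months and of 9.60 and 9.69 in thymus. It rose in skin between 18 and 28 months by 1.61 ± 0.28 (adjusted p = 2.48e-05) and between 4 and 28 months by 0.96 ± 0.28 (adjusted p = 0.0107). In adipose tissue its change was 0.92 ± 0.28 (adjusted p = 0.0462), with an SE pooled over all 13 groups. The adipose arrays overlapped there, at 2.52 to 2.79 at 4 months and 2.72 to 4.48 at 18 months, with SDs of 0.11 and 0.87.

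Across ages in skin, 0 of the 7 genes passed from 4 to 18 (0.107% of all genes), from 18 to 28 (19.4%) or from 4 to 28 months (16.9%). At an unadjusted p below 0.05 there were 0, 2 and 1 genes. Cd3g came nearest, with 1.49 ± 0.57 between 18 and 28 months (adjusted p = 0.0566), and its arrays at these 2 ages did not overlap. Without the adipose array it passed (adjusted p = 0.00255), as did Cd3e with 0.76 ± 0.23 (adjusted p = 0.0150), and Cd3e passed from 4 to 28 months. Macrophage and dendritic cell genes fell in 6 of 16 and adipocyte genes in 5 of 11 in the comparison of 18 and 28 months, while 3 of 5 epidermal genes rose and 0 fell. Over all genes 9.77% rose and 9.58% fell there. The part of these cells was not tested.

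**Figure D5:**
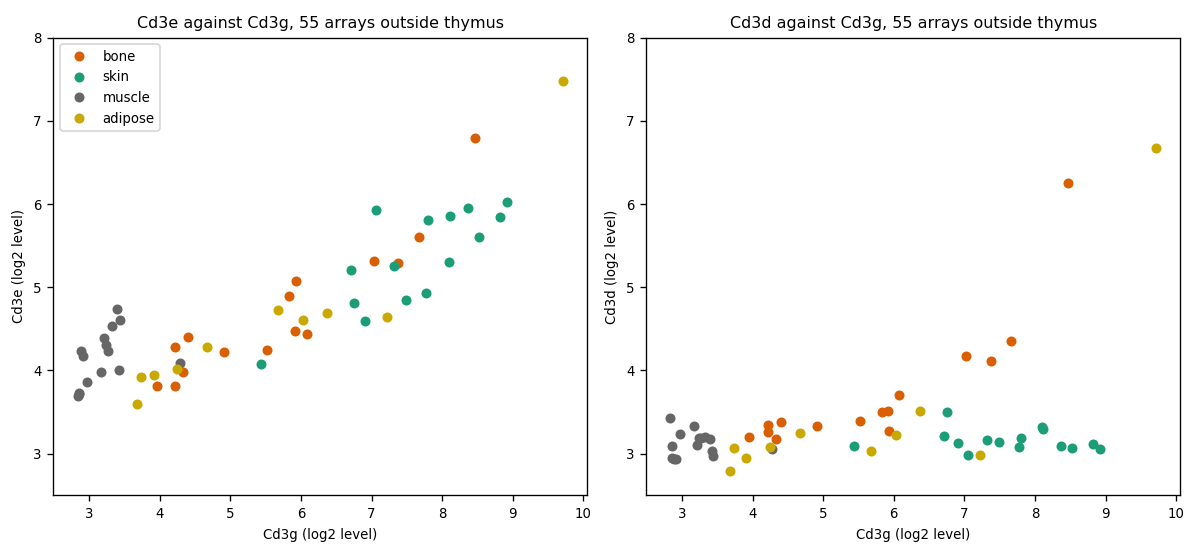
Log2 level of Cd3e (left) and Cd3d (right) against Cd3g on the 55 arrays outside thymus, coloured by tissue. On bone, skin and adipose arrays higher Cd3g goes with higher Cd3e, whereas Cd3d stays between 2.98 and 3.50 on the skin arrays over the whole range of Cd3g there.

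In muscle no gene reached its lowest thymus value at any age, and 0 passed from 4 to 18 (8.4% of all genes), 18 to 28 (13.3%) or 4 to 28 months (18.6%), with 0 at an unadjusted p below 0.05. The largest change in size was that of Cd3g from 4 to 28 months, 0.59 ± 0.57, and its arrays at these 2 ages did not overlap. With the muscle arrays fitted alone in limma, this change was 0.59 ± 0.18 (adjusted p = 0.0519). That of Cd3e was 0.50 ± 0.16 (adjusted p = 0.0637). Neither passed, and without the adipose array 0 of the 7 genes passed in muscle. In adipose tissue 0 of the 7 genes passed between 4 and 18 months (3.34% of all genes) and 0 had an unadjusted p below 0.05. Without replicate 1 of the 4-month group, Cd3g rose there by 1.91 ± 0.39 (adjusted p = 0.000907), where 7.42% of all genes passed. The 18-month arrays had Cd3g levels of 6.04, 7.22, 5.68, 6.37 and 4.24, of which the last lay within the range of the 4 remaining younger arrays, whose mean was 4.00 ± 0.46 (SD, n = 4). The change between 4 and 18 months in thymus less the mean of that in the other 4 tissues was tested as well. There 0 of the 7 genes passed (0.171% of all genes did), and Ptcra alone had an unadjusted p below 0.05 (-0.43 ± 0.12, adjusted p = 0.147).

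The genes whose group means most resembled the mean of the 7 genes over all 13 groups were Traf1 (r = 0.990), Tnfrsf9, Tcra, Cd96 and Cd5 (r = 0.987), among 10475 genes that spanned at least 1 log2 unit. Over the 11 groups outside thymus they were Clec4n (r = 0.964), Klrk1, Lgmn, Clec4a1 and Klrd1 (r = 0.929), among 9644 genes. Over these 11 groups Ptcra correlated negatively with that mean (r = -0.72), while the other 6 genes had r between 0.72 and 0.84. Each of the 7 genes is itself part of that mean, so the positive r of the 6 genes is partly built in.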

How the data were processed

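The deposited values are log2 signals of core probe sets of Affymetrix Mouse Exon 1.0 ST arrays. The authors adjusted the RMA background for GC content, normalized by quantiles, summarised by median polish and annotated on mm9. Quantile normalization sets the probe signals of the arrays it is run on to 1 distribution before probe sets are summarised. Levels are therefore relative within an array, and the number of arrays limits the precision. Tissue and age came from the labels.

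Of 194293 probe sets, 179614 had 1 gene symbol in the platform annotation, 1331 had several and 13348 had none. Probe sets of 1 symbol were averaged into 15830 genes, and no filter was used. Of these symbols 13745 (86.8%) were current in RefSeq. All 65 arrays were fitted with 13 group means in limma 3.58.1 (R 4.3.3), and p-values were adjusted by the Benjamini-Hochberg method over all genes, with a call at an adjusted p below 0.05. Tests are two-sided. In the main fit the error is 1 spread per gene pooled over all 13 groups, not the spread between mice of the tissue tested. Arrays of the same mouse were treated there as separate. Exon usage was tested with diffSplice on genes with at least 3 probe sets at a mean log2 of at least 3 in thymus. Both tests were tested on simulated data, in which diffSplice called unchanged genes too often where probe sets of a gene differed in spread, so probe sets centred on their gene were tested as well, with Simes' method.

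Members and lists were chosen with earlier results of these data known. All members were named, at most 4 genes of a list with the smallest adjusted p in a comparison of thymus or bone, and the 5 genes most like the members. Figures were drawn with matplotlib 3.10.9. Alternatives were the median over probe sets, a filter at 5, fits of the tissue alone, another quantile normalization, a trended prior, blocks for mouse and replicate number, thymus-responsive probe sets, the 4-month mice of 1 ID series left out, and each array left out.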

Additional observations from a re-analysis of the deposited data

Results flagged for a closer look

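The 7 genes in 13 groups gave 91 sets of 5 arrays, of which 13 held an array far from the other 4 (gap over range above 0.71), where chance flags about 5%. Replicate 1 of 4-month adipose tissue accounts for 6 of them, with Cd4 at 7.22, Cd8a at 8.91, Cd8b1 at 7.64, Cd3d at 6.67, Cd3e at 7.48 and Cd3g at 9.71. By the labels the thymus array of the same replicate came from the same mouse. In 18-month adipose tissue, replicate 4 was high in Cd4 (5.05 against 3.36 to 3.60) and replicate 5 low in Cd3e (4.02 against 4.61 to 4.73). In bone, replicate 2 at 4 months was low in Cd4 (4.73 against 5.83 to 6.01), replicate 2 at 18 months low in Cd8b1 (4.19 against 4.92 to 5.08) and replicate 3 at 28 months high in Cd8b1 (7.59 against 5.13 to 5.62). Replicate 1 of 18-month thymus was low in Cd3e (10.20 against 10.36 to 10.40), and replicate 5 of 28-month muscle was high in Cd3g (4.28 against 3.17 to 3.40).

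Changes between 4 and 28 months that differed between tissues by limma's test of the difference (adjusted p below 0.05) were those of bone less skin for Cd3g (2.32), Cd4 (2.23), Cd8a (2.05), Cd8b1 (1.51) and Ptcra (-0.53), and of bone less muscle for Cd3g (2.46), Cd4 (2.11), Cd8a (2.00) and Ptcra (-0.56).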

How the results depend on the processing

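Of the values of the 7 genes under an alternative, 2809 kept their side of the threshold, 40 passed newly, 28 no longer passed, and no called value turned its direction. The causes were not tested. Without replicate 1 of 4-month adipose tissue, an alternative chosen after seeing the data, the number of the 7 genes called went from 0 to 1 in bone between 4 and 18 months, from 1 to 6 between 18 and 28 months, from 0 to 2 in skin between 18 and 28 months, from 0 to 1 in skin between 4 and 28 months and from 4 to 7 in bone less muscle. With a filter at a mean log2 of 5 the counts were 2 in bone between 18 and 28 months, 2 in skin between 18 and 28 months and 1 in skin between 4 and 28 months. Both skin counts included Ptcra and not Cd3e. The limma adjusted p of Ptcra was 0.0335 between 18 and 28 months and 0.0315 between 4 and 28 months, and it passed in no other alternative in skin. With the tissue alone they were 3 and 1 for bone and skin between 18 and 28 months, and 2 and 1 after quantile normalization within the tissue. With probe sets at least 2 units higher in thymus than in muscle, 1 gene passed in thymus between 4 and 18 months and 1 in thymus less the other tissues, but these probe sets were chosen on the 4-month thymus arrays, which enter both comparisons and favour a fall, so neither count supports a change.

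With 1 array of the groups compared left out at a time, the count ranged from 5 to 7 in bone between 4 and 28 months, from 1 to 5 in bone between 18 and 28 months (5 without 28-month replicate 1, 2 without 18-month replicate 1 or 2), from 0 to 1 in skin between 18 and 28 months (1 without 18-month replicate 4) and from 0 to 1 in adipose tissue (1 without 4-month replicate 1). It ranged from 2 to 6 in bone less skin (2 without 28-month bone replicate 3, 3 without 4-month skin replicate 3) and from 2 to 6 in bone less muscle (2 without 28-month bone replicate 3, 6 without 28-month bone replicate 1). In the other comparisons leaving out an array of their own groups did not move it.

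Counts over all genes moved more. A filter at 5 gave 41 genes in thymus (106 in the fit reported), 435 in bone between 18 and 28 months (662), 209 in adipose tissue (528), 1345 in muscle between 18 and 28 months (2102), 1 in skin between 4 and 18 months (17), 2330 in bone less muscle (3987, and 2590 with medians of probe sets), 43 for the later less the earlier change in bone (98) and 1 for thymus less the other tissues (27). Fits of the tissue alone gave 443 in thymus, 1 in adipose tissue, 108, 697 and 1296 in muscle (1329, 2102 and 2945) and 0, 1451 and 1211 in skin (17, 3064 and 2669), and quantile normalization within the tissue gave 426, 0, 122, 794, 1291, 0, 1589 and 1296 for the same comparisons. Without the 4-month mice of ID series 6JA, 152 and 1355 genes were called in skin between 4 and 18 and between 4 and 28 months. In muscle this leaves 1 array at 4 months, which is assumed to vary like the other groups, and 15 and 195 genes were called. Exon usage calls numbered 79, and 27 with the filter, 357 by ordinary least squares and 0 with centred probe sets, and from 31 (without 4-month thymus replicate 4) to 211 (without 18-month thymus replicate 1) with 1 array left out.

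Samples of different groups share replicate numbers. The correlations of deviations between same-numbered arrays ran from -0.47 to 0.57 over the 11 comparisons of age, so the numbers do not pair samples of different ages. Within an age they can, since the same number names the same mouse in bone, skin and muscle at 28 months. The same holds for thymus and adipose tissue at 4 months. With the replicate number as a block, 7 of the 7 genes passed in bone between 4 and 28 months, 1 between 18 and 28 months, 0 in thymus, 5 in bone less skin and 4 in bone less muscle. The block changed no call of a gene.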
